A study of Mus musculus with 37 samples.

Results

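Hoxa5, Hoxb5, Hoxc5, Hoxa6, Hoxb6, Hoxc6, Hoxa7 and Hoxb7 are the members of Hox paralogue groups 5 to 7, the trunk Hox genes whose activity in the embryo starts near the level of the neck and the upper chest. The list is set by gene name, with no measured value in its rule, but it was chosen with earlier results of these data known. It holds 8 of the 39 Hox genes in the deposited table of Hox levels, and of the 35542 genes in the deposited count table. Their expression was followed in the tailbud of mouse embryos staged from 6 to 11 somites (blocks of mesoderm laid down in pairs along the axis, whose number serves as developmental age).

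Hox genes encode transcription factors that bind DNA through a homeodomain and give each level of the body axis its identity. They lie in 4 clusters, and genes at one end of a cluster are switched on earlier and further forward than genes at the other end, a relation called collinearity. Genes at the same place in different clusters are paralogues with partly shared roles. In the tailbud, where progenitors of spinal cord and mesoderm add new axial tissue, the trunk Hox genes are switched on one after another under Cdx factors, Wnt, FGF and retinoic acid signals, while Polycomb proteins hold inactive Hox genes silent and trithorax proteins keep active ones on. Group 5 genes are known for roles at the transition from neck to thorax and in lung development, group 6 genes for upper thoracic rib identity, and group 7 genes for thoracic vertebrae.

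SMCHD1 is a chromatin protein involved in gene silencing, and the study asked how loss of the SMCHD1 that the oocyte supplies alters Hox expression at matched somite number. All 37 embryos were C57BL/6/Cast F1 at E8 to 8.5. The controls, called Smchd1 wt here, carried the genotype Smchd1 fl/+ and came from Smchd1 fl/fl mothers without Cre, so both the mothers and the controls carried a floxed allele. The maternally deleted embryos, called Smchd1 matΔ, carried Smchd1 del/+ and came from Smchd1 del/fl mothers with the MMTV-Cre transgene, which deletes the floxed allele in the oocyte, and all fathers were Cast. The matΔ embryos thus lacked the maternal protein and also had only the paternal Smchd1 allele, and in these libraries both differ from the controls together and cannot be told apart. Each library was 1 tailbud from 1 embryo. From 6 to 11 somites in order, the stages held 4, 4, 3, 3, 4 and 3 wt embryos, against 4, 3, 2, 2, 3 and 2 matΔ embryos. Of these 4, 1, 1, 2, 3 and 2 wt embryos and 4, 1, 2, 2, 1 and 1 matΔ embryos were female, so that at 8 and 9 somites the matΔ embryos were all female and the wt embryos were not.

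Library depth ran from 3061180 to 80579115 counts in the 21 wt embryos and from 916444 to 30156555 in the 16 matΔ embryos. Smchd1, which checks the labels, stood between 105 and 204 CPM (counts per 1000000) in wt and between 64.0 and 112 CPM in matΔ embryos, and its fold change over all stages was 0.598 (log2 fold change −0.74, SE 0.075, adjusted p = 1.5e-07, edgeR). The zygotic paternal allele is intact, so this check does not read the maternal protein. All 6 tailbud progenitor genes (T, Cdx2, Wnt3a, Fgf8, Nkx1-2 and Sox2) had a median over embryos of 1 CPM or more in each genotype. Their sum ran from 476 to 1170 CPM in wt and from 754 to 1068 CPM in matΔ embryos. Tailbud markers as a set were thus present in every embryo, while each gene in each embryo was not counted. Some libraries stood apart in marker sums. The wt embryo at 10 somites numbered replicate 1 had the lowest sum of all 37 for tailbud progenitor genes (476 CPM) and for presomitic mesoderm genes (115 CPM), with 375 CPM of lateral plate and 524 CPM of surface ectoderm genes, the second highest of all embryos in both lists. Expression was read from whole tissue, so that fewer cells expressing a gene and less RNA per cell cannot be told apart. In the matΔ embryos at 6 somites, replicates 1 and 2 had 1.82 to 2.77% of their counts in ribosomal RNA loci against 0.176 to 1.28% in the other 35, and replicate 3 had only 916444 counts. Replicate 1 of that pair also had the highest lateral plate (400.5 CPM) and surface ectoderm (721 CPM) sums of all 37 embryos, and replicates 1 and 2 had the 2 highest somite sums (43.4 and 77.4 CPM). Where a result rests on this pair or on the wt replicate 1 at 10 somites, its value without them follows if it was computed. The part of these tissues in such results was not tested.

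The 8 genes lie in 3 Hox clusters, given here on GRCm38 with the span of the annotated gene. Hoxa5 (chr6:52201754-52204587), Hoxa6 (chr6:52206288-52208722) and Hoxa7 (chr6:52214491-52221854) are on the minus strand. On chromosome 11, Hoxb7 (chr11:96286623-96290162), Hoxb6 (chr11:96292476-96301569) and Hoxb5 (chr11:96303336-96306121) follow each other on the plus strand. Hoxc6 (chr15:102998257-103011881) lies on the plus strand within the longer annotated span of Hoxc5 (chr15:102967443-103017429), with which it shares no exon base. The HoxD cluster has no gene of groups 5 to 7.

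The homeobox is a stretch in which these genes are alike, which bears on how their reads can be told apart. The coding exon stretch for the third helix of the homeodomain, the helix that contacts the major groove of DNA, is printed from GENCODE M21 (GRCm38). It is given for 4 genes, the group 6 and 7 genes Hoxb6, Hoxc6 and Hoxb7 and the most divergent sequence, Hoxa5. The stretch covers residues 42 to 58 of the homeodomain (51 bases), from chr6:52202638-52202688 in Hoxa5 and chr15:103010877-103010927 in Hoxc6, for example. Capitals mark each base that differs from the most common base at that position among the 8 genes.
Hoxa5: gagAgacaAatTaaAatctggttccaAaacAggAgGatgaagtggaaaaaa
Hoxb6: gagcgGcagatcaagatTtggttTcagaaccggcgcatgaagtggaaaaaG
Hoxc6: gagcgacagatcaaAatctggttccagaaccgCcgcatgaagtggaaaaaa
Hoxb7: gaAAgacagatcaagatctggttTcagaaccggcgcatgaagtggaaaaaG
Over all 8 genes this stretch encodes the same amino acids, and 16 of its 51 positions vary. Hoxc6 is off the most common base at 2 positions and Hoxa5 at 8. Over the whole homeobox of 180 bases, identity between pairs ran from 73.9 to 88.9% (28 pairs), with a median of 83.9% in the 7 pairs within a paralogue group and 79.4% in the other 21. The longest stretch shared by any pair of annotated transcripts was 47 bases, between Hoxa6 and Hoxa7, shorter than the 75-base reads, and 0 of the 28 pairs shared a stretch as long as a read.

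Overlaps with 3 other genes were of more weight for the counts, since it is not known here which libraries kept the strand. Hoxa7 shares 586 exon bases (20.4% of its exons) with the antisense transcript Hoxaas3, Hoxb5 shares 100 bases (3.59%) with the antisense transcript Hoxb5os, and Hoxc5 shares 166 bases (5.37%) with Hoxc10 on the same strand. If reads were spread evenly over the exons of Hoxb5os and all counted for both genes, they would come to a median of 89.0% of the Hoxb5 count in wt and 73.6% in matΔ embryos, with a range from 15.1 to 166% over all embryos. A share above 100% cannot hold, so at least 1 of these assumptions fails in some embryos, and the level of Hoxb5 is given as uncertain. The same reckoning gave 29.7 to 43.0% of the Hoxa7 count for Hoxaas3 and at most 8.60% of the Hoxc5 count for Hoxc10. The levels below are as deposited, with none of these reads taken off. The rank of Hoxa7 among the members carries this limit, and its rank with such reads taken off was not tested.

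Hoxa5, Hoxa6 and Hoxa7, neighbours on chromosome 6, have a promoter entry in RefSeq (GRCm38.p6), all on the minus strand. Whether their changes with stage differ from each other was not tested. For Hoxa5 (chr6:52204588-52204837) and Hoxa6 (chr6:52208723-52208922) the bases before the first annotated exon base are printed. For Hoxa7 the printed bases (chr6:52218712-52218823) lie before an alternative start. They are inside the annotated span of Hoxa7, which reaches 52221854, and not upstream of the whole gene. Capitals mark TTTATG, one of the forms of the Cdx binding motif, on either strand.
Hoxa5: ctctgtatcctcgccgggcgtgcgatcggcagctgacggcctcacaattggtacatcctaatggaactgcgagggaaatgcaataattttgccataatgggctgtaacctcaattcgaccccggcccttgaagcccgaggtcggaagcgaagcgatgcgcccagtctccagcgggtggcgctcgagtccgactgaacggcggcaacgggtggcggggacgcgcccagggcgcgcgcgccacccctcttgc
Hoxa6: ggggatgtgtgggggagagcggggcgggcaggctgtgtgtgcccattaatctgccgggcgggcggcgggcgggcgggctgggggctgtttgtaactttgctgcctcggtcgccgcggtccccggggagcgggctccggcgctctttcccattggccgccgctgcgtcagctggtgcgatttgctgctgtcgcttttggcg
Hoxa7: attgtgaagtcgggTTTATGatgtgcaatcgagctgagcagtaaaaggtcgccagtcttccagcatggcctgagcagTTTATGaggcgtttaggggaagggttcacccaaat
TTTATG occurred 2 times in the Hoxa7 entry and 0 times in those of Hoxa5 and Hoxa6, within 250 bases before the start and on both strands, and 10.8% of 32851 promoter entries held it in windows of the same length. The letters TTTATT, a second Cdx form that differs from the first in its last base, and AGGTCA, a retinoic acid receptor half-site motif, occurred in none of the 3 entries, against 18.1% and 14% of all entries.

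The levels of the genes formed 4 tiers. Values are log2 RPKM (log2 of reads per kilobase of exon and 1000000 reads) as deposited, the scale on which genes of different length can be compared. In the 21 wt embryos, Hoxa7, a gene of thoracic level, was the most abundant at 5.94 ± 0.27 (SD, n = 21) and lay above every other member in all 21. Hoxb7, a gene known for its activity in the ureteric bud, followed at 4.57 ± 0.22 (SD, n = 21), with Hoxb6 at 4.50 ± 0.21 (SD, n = 21) and Hoxc6, which is known to mark motor neurons at forelimb level, at 4.38 ± 0.46 (SD, n = 21). These 3 neighbours did not separate: Hoxb7 was above Hoxb6 in 14 of 21 embryos and Hoxb6 above Hoxc6 in 10 of 21. Hoxa5 at 2.85 ± 0.33 (SD, n = 21) and Hoxc5 at 2.68 ± 0.23 (SD, n = 21) formed the third tier, with Hoxa5 the higher in 14 of 21 embryos, and Hoxa5 lay below Hoxc6 in all 21. Hoxb5 at 1.40 ± 0.30 (SD, n = 21) and Hoxa6 at 1.10 ± 1.05 (SD, n = 21) were the lowest, with Hoxb5 above Hoxa6 in 12 of 21.

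The matΔ embryos had the same order of tiers in most embryos (Hoxc6 above Hoxa5 and Hoxc5 above Hoxb5 in 15 of 16), with Hoxa7 at 5.96 ± 0.32 (SD, n = 16) above all others in 16 of 16. Hoxb6 at 4.59 ± 0.26 and Hoxb7 at 4.59 ± 0.19 (SD, n = 16) did not separate, each being the higher in 8 of 16 embryos. Hoxc6 was at 4.32 ± 0.67 (SD, n = 16), Hoxa5 at 2.78 ± 0.42 and Hoxc5 at 2.63 ± 0.25 (SD, n = 16). Hoxb5 at 1.46 ± 0.85 and Hoxa6 at 1.19 ± 0.87 (SD, n = 16) spread most, and both included an embryo at 0 counts, the shallow 6-somite replicate 3, whose listed values of −1.56 and 0.11 stand for 0.883 of a count. Genes of 1 paralogue group did not share a level, and group 6 alone spanned the second and the lowest tier.

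**Figure D1:**
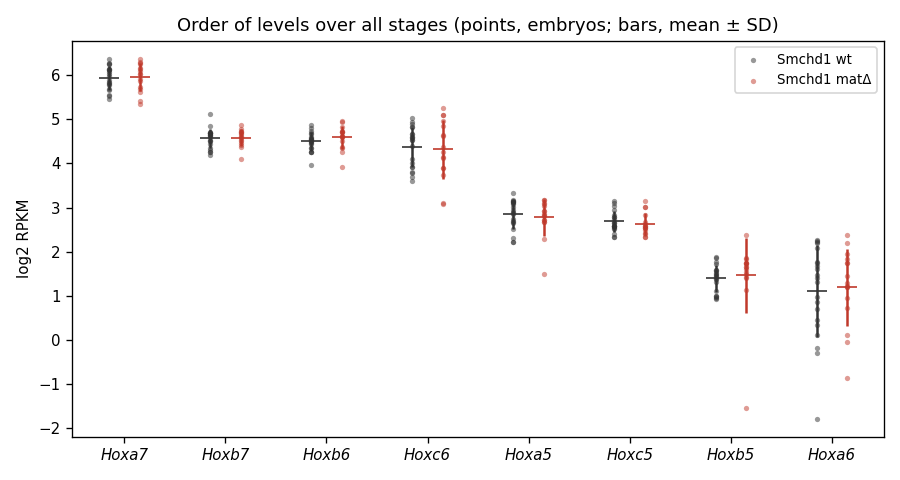
Level of each of the 8 Hox genes (log2 RPKM, vertical axis) in every embryo, with Smchd1 wt and Smchd1 matΔ embryos shown apart, bars for the mean ± SD, and genes ordered by their mean in wt. Hoxa7, with no Hoxaas3 reads taken off, lies above all other genes in every embryo, and Hoxa6 has the widest spread, with an SD of 1.05 in wt.

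Depth set the precision of the low genes. The median count per embryo was 2249 for Hoxa7 (135 to 14894), 622 for Hoxc6, 592 for Hoxb6, 451 for Hoxb7, 241 for Hoxc5, 184 for Hoxa5 and 103 for Hoxb5. Hoxa6 had a median of 28 counts and fewer than 10 in 7 of 37 embryos, so its values carry large counting error.

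The first comparison asked how each gene changed with developmental age within a genotype. Hoxc6 rose in both genotypes, Hoxa6 rose from a low level in both, and Hoxa7 rose in the matΔ embryos. Group 5 did not pass the test in either genotype, and neither did Hoxb6, the third group 6 gene, whose fitted change was downward. In wt, 2 of 8 members rose and 0 fell, where 3.13% of 15148 genes rose and 3.51% fell. In matΔ, 3 of 8 rose and 0 fell, where 1.93% of 15477 genes rose and 1.14% fell. Each value is a slope, the fitted change in log2 counts per somite from edgeR with sex as a covariate, and its p is adjusted over all genes tested. At an unadjusted p under 0.05 there were 5 members in wt, where 21.4% of genes had one, and 4 in matΔ, against 17.5%. Whether the embryos with 6 and 11 somites were apart is described below for 4 against 3 wt and 4 against 2 matΔ embryos. The share of all genes apart between these ages was not counted, so being apart is no result on its own.

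Hoxc6 rose in every slope fit that was run. Wt embryos with 6 somites had 3.70, 3.60, 4.09 and 3.80 log2 RPKM, those with 11 somites 4.66, 4.90 and 4.82. In matΔ the values were 3.11, 3.07, 3.89 and 3.89 with 6 somites, against 5.10 and 5.09 with 11. The 2 ages did not overlap in either genotype, and the lowest values of all were those of the matΔ replicates 1 and 2 at 6 somites, the pair with more ribosomal RNA counts. Between these ages, wt embryos ran from 3.78 to 4.67 at 7 somites, from 3.91 to 4.60 at 8, from 4.54 to 4.83 at 9 and from 4.53 to 5.03 at 10 somites. The slope was 0.21 (SE 0.034, 95% interval 0.14 to 0.28, adjusted p = 4.2e-04) in wt, which is a fitted 2.05-fold over 5 somites, and 0.32 (SE 0.044, 95% interval 0.23 to 0.41, adjusted p = 3.3e-04) in matΔ, a fitted 3.03-fold. Hoxc6 passed with each of the 21 wt and each of the 16 matΔ embryos left out, and without the pair rich in ribosomal RNA counts its matΔ slope was 0.27 (adjusted p = 0.0028).

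Hoxa6 had the steepest wt slope on the fewest counts. At 6 somites the wt embryos had 19, 2, 21 and 8 counts (0.69, −1.79, 0.98 and 0.11 log2 RPKM), and at 11 somites 70, 64 and 22 counts (2.20, 2.09 and 1.46). The matΔ embryos had 6, 7, 0 and 36 counts with 6 somites (−0.06, −0.87, 0.11 and 0.94 as listed), against 66 and 67 with 11 (2.37 and 2.20). All embryos at 11 somites were above all at 6 somites. The slope was 0.31 (SE 0.086, adjusted p = 0.0297) in wt and 0.32 (SE 0.081, adjusted p = 0.0381) in matΔ. This call was fragile: it held in 15 of the 21 fits that left out a wt embryo and in 6 of the 16 that left out a matΔ embryo, and in matΔ without the pair rich in ribosomal RNA counts the slope was 0.24 on 2 fewer embryos and did not pass (adjusted p = 0.0997).

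Hoxb6 went the other way in its fitted slope without passing. Wt embryos had 4.60, 4.52, 4.80 and 4.26 log2 RPKM with 6 somites, against 3.97, 4.27 and 4.34 with 11. In matΔ embryos the values were 4.96, 4.60, 4.74 and 4.63, against 4.59 and 4.35. The ages overlapped in wt and were apart, lower at 11 somites, in matΔ, by a narrow margin (4.60 against 4.59). The slope was −0.067 (SE 0.021, adjusted p = 0.0562) in wt and −0.062 (SE 0.034, adjusted p = 0.356) in matΔ. Without the wt embryo at 10 somites with the low tailbud marker sums, the wt slope was −0.069 and passed (adjusted p = 0.0370).

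**Figure D2:**
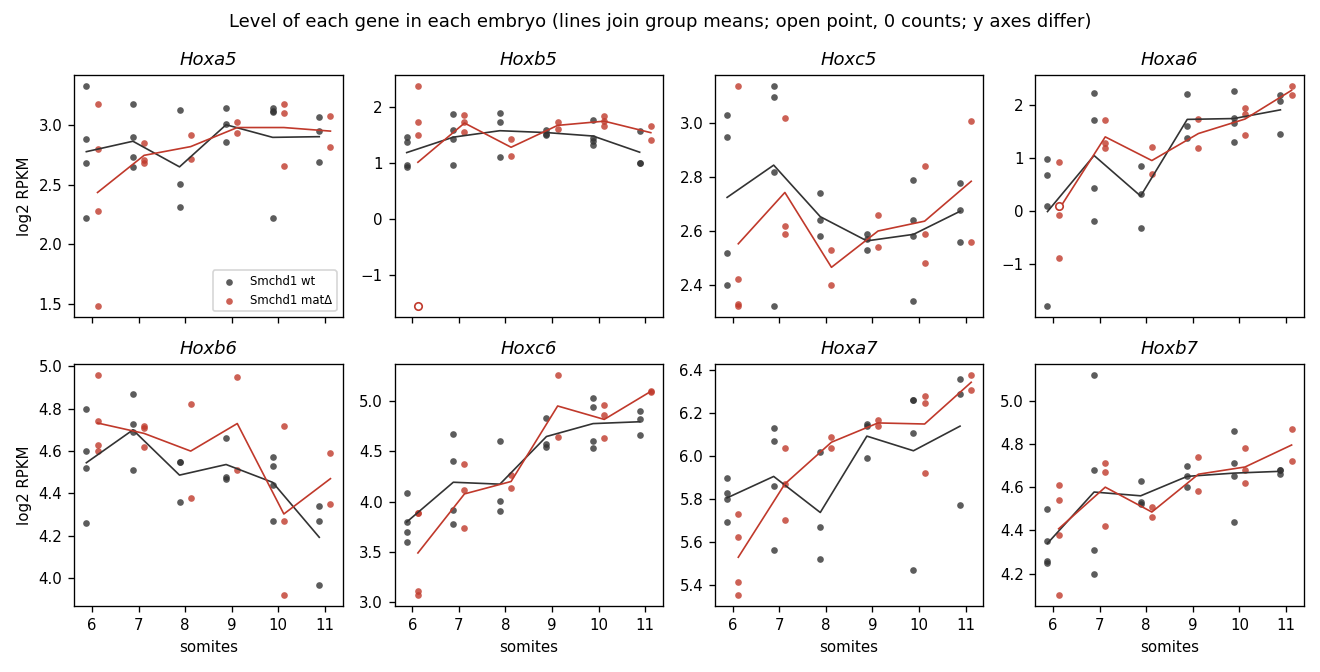
Level of each gene (log2 RPKM, vertical axis) against somite number (6 to 11, horizontal axis), with 1 point per embryo, lines that join the group means, open points for embryos at 0 counts, and a vertical scale that differs between panels. Hoxc6 and Hoxa6 lie higher at 11 than at 6 somites in both genotypes, while Hoxa5, Hoxb5 and Hoxc5 overlap between these ages.

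Together these changes altered which group 6 gene was the most abundant. At 6 somites Hoxb6 made up 60.7% ± 3.8 (SD, n = 4) of the summed RPKM of the 3 genes in wt and Hoxc6 36.2% ± 3.2 (SD, n = 4). At 11 somites Hoxb6 made up 36.7% ± 2.6 (SD, n = 3) and Hoxc6 55.5% ± 0.37 (SD, n = 3). Hoxa6 remained the smallest, at 3.08% ± 1.6 (SD, n = 4) and 7.80% ± 2.4 (SD, n = 3). The same exchange was present in matΔ, where Hoxb6 went from 68.0% ± 8.0 (SD, n = 4) to 36.2% ± 2.5 (SD, n = 2) and Hoxc6 from 29.2% ± 7.1 (SD, n = 4) to 55.8% ± 2.8 (SD, n = 2). At 6 somites the matΔ shares of Hoxb6 ran from 59.7 to 76.4%. Hoxc6 was lower in replicates 1 and 2, the pair rich in ribosomal RNA counts, than in 3 and 4 (3.11 and 3.07 against 3.89 and 3.89 log2 RPKM). The size of these mean shares thus rests in part on that pair, and shares without it were not computed. Hoxb6 was above Hoxc6 in all 4. Hoxb6 was above Hoxc6 in 9 of 11 wt embryos with 6 to 8 somites and in 1 of 10 with 9 to 11 somites, and in matΔ in 9 of 9 and 1 of 7. The order of these genes thus changed near 9 somites in both genotypes; this is a description with no test of its own.

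**Figure D3:**
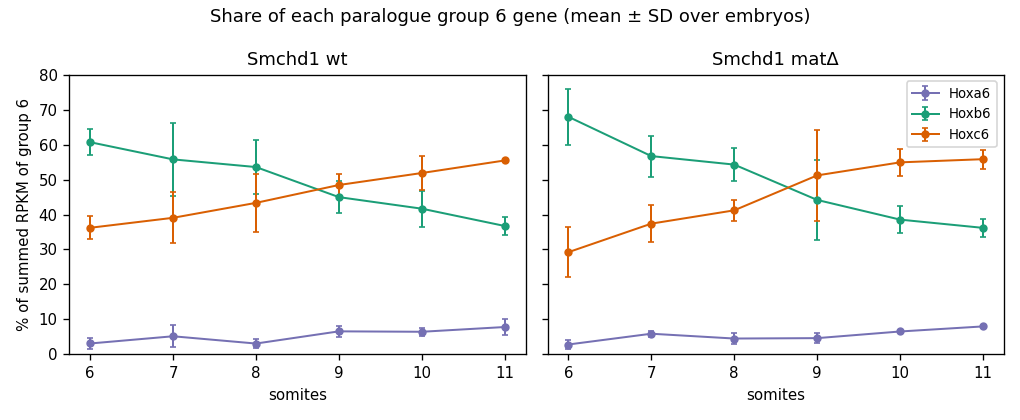
Share of Hoxa6, Hoxb6 and Hoxc6 in their summed RPKM (percent, vertical axis) by somite number (horizontal axis) in each genotype, as the mean ± SD over embryos. Hoxb6 has the largest share in all embryos at 6 somites and Hoxc6 in all embryos at 10 and 11 somites, in both genotypes.

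Group 7 changed less in size. Hoxa7 had 5.69, 5.80, 5.90 and 5.83 log2 RPKM in wt embryos with 6 somites, against 5.77, 6.36 and 6.29 with 11. In matΔ the values were 5.35, 5.41, 5.62 and 5.73, against 6.38 and 6.31. The ages overlapped in wt, through the first embryo at 11 somites, and were apart in matΔ. The wt slope of 0.067 (SE 0.029, adjusted p = 0.168) did not pass, whereas the matΔ slope of 0.15 (SE 0.021, adjusted p = 5.5e-04) passed, also with each of the 16 matΔ embryos left out and without the pair rich in ribosomal RNA counts (0.12, adjusted p = 0.0060). The wt call turned on 1 embryo: without replicate 1 at 10 somites, whose Hoxa7 level of 5.47 was the lowest of all 21 wt embryos, the slope was 0.082 and passed (adjusted p = 0.0380). The antisense Hoxaas3 had a slope of 0.03 in wt (adjusted p = 0.601) and 0.08 in matΔ (SE 0.020, adjusted p = 0.0354), and with its expected reads taken off, Hoxa7 had a slope of 0.09 (adjusted p = 0.0802) in wt and 0.19 (adjusted p = 1.7e-04) in matΔ.

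Hoxb7 was higher at 11 than at 6 somites by 1.26-fold in wt and 1.31-fold in matΔ, as means of log2 RPKM. Wt embryos with 6 somites had 4.25, 4.26, 4.50 and 4.35 log2 RPKM, against 4.68, 4.66 and 4.68 with 11. In matΔ the values were 4.54, 4.10, 4.61 and 4.38, against 4.87 and 4.72. The 2 ages were apart in both genotypes, but the slopes of 0.059 (SE 0.025, adjusted p = 0.158) and 0.062 (SE 0.023, adjusted p = 0.161) did not pass. Hoxa7 made up 73.4% of the summed RPKM of the pair at 6 and 73.3% at 11 somites in wt. In matΔ its share was 68.4% ± 3.9 (SD, n = 4) and 74.5% ± 0.68 (SD, n = 2), and its log2 RPKM above Hoxb7 did not overlap between the ages (0.81 to 1.36 against 1.51 to 1.58).

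None of the group 5 genes passed in either genotype. Hoxa5, known for its part in lung and cervicothoracic development, had a slope of 0.025 (adjusted p = 0.775) in wt and 0.073 (adjusted p = 0.387) in matΔ. Hoxc5 had slopes of −0.035 (adjusted p = 0.512) and 0.025 (adjusted p = 0.778). Hoxb5 had slopes of 0.0045 (adjusted p = 0.967) and −0.024 (adjusted p = 0.905), while the overlapping Hoxb5os rose in both, by 0.25 per somite in wt (SE 0.044, adjusted p = 9.3e-04) and 0.24 in matΔ (SE 0.047, adjusted p = 0.0067). The 95% intervals of the 3 group 5 slopes ran from −0.092 to 0.11 in wt, so a change as steep as the fitted wt slope of Hoxc6 lay outside them. In wt, Hoxa5 made up 43.6% of the summed RPKM of its group at 6 and 46.3% at 11 somites, Hoxc5 42.1% and 39.6%, and Hoxb5 14.3% and 14.1%.

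**Figure D4:**
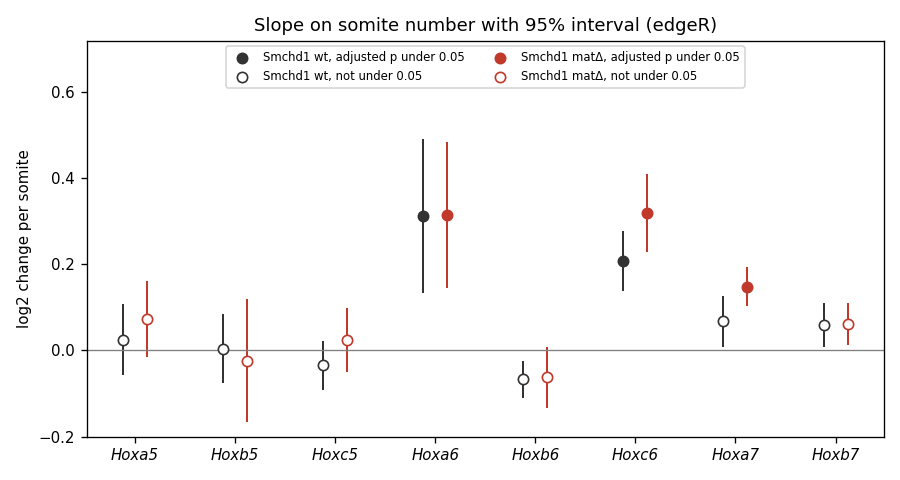
Slope on somite number (log2 change per somite, vertical axis) of each gene (horizontal axis) in Smchd1 wt and Smchd1 matΔ embryos, with 95% intervals, filled where the adjusted p was under 0.05. Hoxc6 and Hoxa6 pass in both genotypes, with fitted slopes of 0.21 and 0.31 in wt and 0.32 and 0.32 in matΔ. Hoxa7 passes in matΔ, with a fitted slope of 0.15.

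Markers of other tissues also moved with stage. In wt, 1 of 6 tailbud progenitor markers fell, 1 rose and 2 fell of 6 endoderm markers, 1 of 5 erythroid, 2 of 5 endothelial and 1 of 4 neural tube markers rose, and 1 of 5 lateral plate markers fell. The endoderm sum had a median of 739 CPM (298 to 1886) at 6 to 8 somites and 200 CPM (99.8 to 1642) at 9 to 11 somites, and the erythroid sum 108 CPM (12.7 to 1806) and 876 CPM (112 to 3802). In matΔ, 1 tailbud progenitor and 1 lateral plate marker fell, and 1 erythroid and 2 endothelial markers rose. None of the presomitic mesoderm, somite, notochord or surface ectoderm markers passed in either genotype. No defining marker of these lists was at 0 in all embryos, and the part of these tissues in the slopes was not tested.

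Whether the slopes differ between genotypes was tested directly, as the interaction of genotype and somite number over all 37 embryos. No member passed: 0 of 8 were called by edgeR and 0 by DESeq2, and 0% of 15978 genes were. At an unadjusted p under 0.05 there was 1 member, where 3.92% of all genes had one. This was Hoxa7, whose slope was 0.085 per somite steeper in matΔ (SE 0.039, 95% interval 0.0069 to 0.16, unadjusted p = 0.0337, adjusted p = 0.9998, edgeR). Without the wt replicate 1 at 10 somites this difference was 0.068 (unadjusted p = 0.0611), and without the pair of matΔ libraries rich in ribosomal RNA counts 0.058 (unadjusted p = 0.153). Hoxc6 was 0.11 steeper in matΔ (SE 0.056, 95% interval −0.0019 to 0.22, unadjusted p = 0.0538, adjusted p = 0.9998), or 0.056 without that pair, and the other 6 differences lay between −0.021 and 0.060. Hoxa7 passed in matΔ and not in wt, but a difference between the genotypes was not shown.

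The main comparison of the study was matΔ against wt at matched age. No member was called at any age or in any group of ages. Counting the tests of differences between slopes and between ages, none of 283 alternative fits called one either, over 2259 member values, of which the smallest adjusted p was 0.282 for Hoxc6 at 11 somites without the wt replicate 2. Over all stages the log2 fold changes (matΔ against wt, with somite number and sex in the fit) ran from −0.066 for Hoxc5 to 0.21 for Hoxb5, with a median of 0.021 and 95% intervals within −0.32 and 0.48. Of the 8 genes, 0 passed by edgeR, where 0.0125% of genes did, 0 passed by DESeq2, which called 3 genes in all, and 0 had an unadjusted p under 0.05, where 5.67% of genes did. Hoxc6 had a log2 fold change of 0.0063 (95% interval −0.19 to 0.20), Hoxa7 0.021 (−0.12 to 0.16) and Hoxb7 0.021 (−0.10 to 0.14), so the upper end for Hoxc6 was 1.15-fold. Without the pair rich in ribosomal RNA counts Hoxc6 had 0.085 (95% interval −0.095 to 0.26), and Hoxb5 had 0.13.

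Between 6 and 8 somites the values had no common direction. The log2 fold changes ran from −0.13 to 0.28, with 4 of 8 above 0 and a median of 0.013, and 0 of 8 passed by edgeR, where 0.00639% of genes did, and 0 by DESeq2, which called 29 genes in all. None had an unadjusted p under 0.05, against 7.77% of genes. Without the pair rich in ribosomal RNA counts, 3 members changed sign, Hoxc6 from −0.10 to 0.039, Hoxa7 from −0.019 to 0.061 and Hoxb5 from 0.20 to −0.0064, and Hoxa6 went from 0.28 to 0.52. Hoxc6 stood at 3.60, 3.92 and 4.67 log2 RPKM (lowest, median and highest of 11 wt embryos) and at 3.07, 3.89 and 4.37 in the 9 matΔ embryos, and the groups overlapped.

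Between 9 and 11 somites all 8 log2 fold changes were above 0, from 0.026 to 0.25 with a median of 0.083, where 52.8% of all genes were above 0 with a median of 0.0064. The 27 other Hox genes tested had a median of 0.073, so the shift was not particular to groups 5 to 7. None passed by edgeR (0.00635% of genes passed) or by DESeq2 (1 gene in all), and 2 had an unadjusted p under 0.05, against 1.88% of genes. Hoxc6 stood at 4.53, 4.74 and 5.03 in the 10 wt embryos and at 4.63, 4.96 and 5.26 in the 7 matΔ embryos, with overlapping groups and a log2 fold change of 0.23 (SE 0.094, unadjusted p = 0.0253, adjusted p = 0.9998, edgeR). Hoxb5 stood at 0.99, 1.47 and 1.76 in wt and at 1.41, 1.66 and 1.83 in matΔ, with a log2 fold change of 0.25 (SE 0.11, unadjusted p = 0.0309, adjusted p = 0.9998), and the overlapping Hoxb5os had −0.055. Hoxa7 stood at 5.47, 6.14 and 6.36 in wt and at 5.92, 6.25 and 6.38 in matΔ, with 0.17 (SE 0.086, unadjusted p = 0.0702). The shared direction depended on the embryos used. Without the wt replicate 1 at 10 somites 6 of 8 were above 0, with −0.0037 for Hoxa5, −0.021 for Hoxa6, 0.11 for Hoxa7 and 0.22 for Hoxc6. In females alone 6 of 8 were also above 0. Without the matΔ replicate 1 at 10 somites (lowest value −0.015) or at 11 somites (−0.041), 7 of 8 were. The count was also 7 without the wt replicate 1 at 9 somites (−0.026) or 3 at 11 somites (−0.033). All 8 stayed above 0 without any other single embryo.

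At 10 and 11 somites, ages that the study singled out on these same embryos, all 8 values were again above 0, from 0.057 to 0.32, where 51.2% of all genes were. Their median was 0.17, and that of the 27 other Hox genes tested was also 0.17, with 5 of the 27 at an unadjusted p under 0.05. Without the wt replicate 1 at 10 somites all 8 fitted values were still above 0, from 0.026 to 0.33. The difference of mean log2 RPKM in Hoxa5 then turned from 0.067 to −0.046. In females alone 7 of 8 were above 0 (lowest −0.068). So were 7 of 8 without the matΔ replicate 1 (−0.019) or 3 (−0.031) at 10 somites. The count was also 7 without the matΔ replicate 1 (−0.010) or the wt replicate 1 (−0.062) at 11 somites. All 8 stayed above 0 without any other single embryo. With all embryos none of the 8 passed by edgeR, where 0% of genes did, or by DESeq2, which called 2 genes in all. At an unadjusted p under 0.05 there were 2, against 4.13% of genes. Hoxa7 had 0.28 (SE 0.11, unadjusted p = 0.0238, adjusted p = 0.988, edgeR), or 0.19 (unadjusted p = 0.0880) without the wt replicate 1 at 10 somites. Hoxb5 had 0.32 (SE 0.15, unadjusted p = 0.0493) and Hoxc6 0.20 (unadjusted p = 0.0598).

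The genotype effect was not shown to differ between the earlier and the later ages. In the test of that difference 0 of 8 members passed by edgeR, where 0% of genes did, or by DESeq2, which called 2 genes in all, and 1 had an unadjusted p under 0.05, against 3.55% of genes. This was Hoxc6, whose effect was 0.37 higher at 9 to 11 than at 6 to 8 somites (SE 0.18, 95% interval 0.00089 to 0.75, unadjusted p = 0.0495, adjusted p = 0.9999, edgeR), or 0.35 (unadjusted p = 0.0725) without the wt replicate 1 at 10 somites and 0.25 (unadjusted p = 0.180) without the pair of matΔ libraries rich in ribosomal RNA counts.

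No marker of any of these tissues was called between genotypes over all stages. The sum of the 5 somite markers ran from 12.3 to 31.5 CPM in wt and from 15.5 to 77.4 CPM in matΔ embryos, that of the 5 lateral plate markers from 148 to 375 and from 157 to 400.5 CPM, and their part in the values of the Hox genes was not tested.

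**Figure D5:**
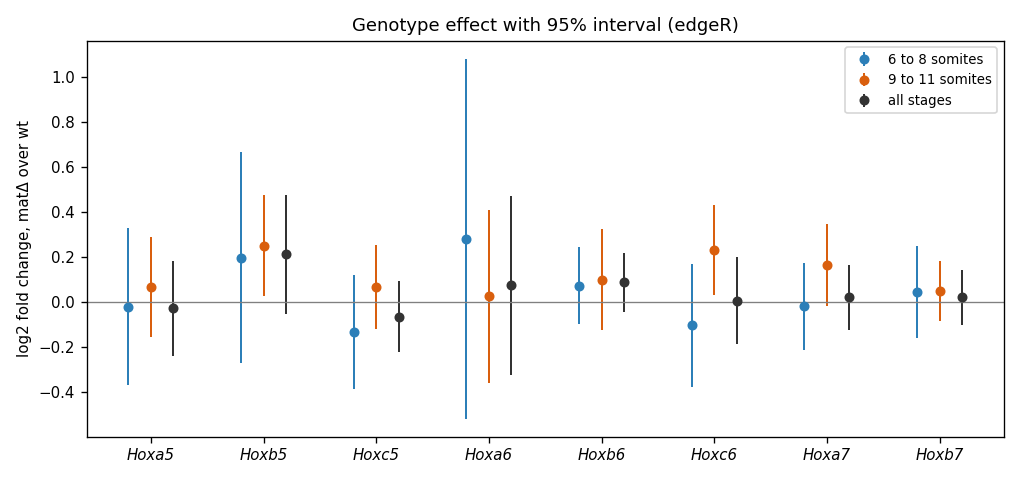
Log2 fold change of matΔ against wt (vertical axis) for each gene at 6 to 8, at 9 to 11 and over all somite numbers, with 95% intervals from edgeR. All 8 values at 9 to 11 somites are above 0, between 0.026 and 0.25, and none passed the test.

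At single ages the groups held 2 to 4 embryos each. At 6 somites 7 members could be tested, since Hoxa6 was below the filter on low counts, and Hoxa7 had the only unadjusted p under 0.05, where 5.54% of genes had one. It was lower in matΔ by edgeR (−0.24 on the log2 scale, SE 0.099, adjusted p = 0.862), 5.35 to 5.73 log2 RPKM against 5.69 to 5.90, and by −0.13 without the pair rich in ribosomal RNA counts. At 11 somites all 8 values were above 0, where 51.1% of all genes were, and the 27 other Hox genes tested had a median of 0.14. The lowest value was −0.062 without the wt replicate 1, −0.13 without the matΔ replicate 1 and −0.089 without the matΔ replicate 2. It stayed above 0 without the wt replicate 2 or 3. Hoxc6 alone had an unadjusted p under 0.05, against 8.66% of genes. The Hoxc6 value by edgeR was 0.29 (SE 0.10, adjusted p = 0.567).

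Whether the genotypes overlapped at a single age depended on the scale. In log2 CPM, the scale of the shares given for all genes, Hoxa7 was lower in matΔ at 6 somites (1 of 8 members, against 3.5% of genes). At 8 somites Hoxc5 and Hoxb7 were lower in matΔ (2 of 8, against 15.8% of genes), at 9 somites Hoxb5 was higher (1 of 8, against 13%), and at 11 somites Hoxc6 and Hoxb7 were higher (2 of 8, against 26.4%). At 11 somites the members' 25% thus lay near the share of all genes. In log2 RPKM, Hoxa7 at 8 somites (6.04 and 6.09 against 5.52, 6.02 and 5.67) and Hoxa6 and Hoxb6 at 11 somites were also apart, higher in matΔ, and Hoxa7 at 6 somites was not. Sex is not balanced at 8 and 9 somites, and with sex as a covariate the single-age fits there also called 0 of 8 members.

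The other genes of the pathway give the setting. For the slope counts of these lists, 3.13% of all genes rose and 3.51% fell in wt, and 1.93% rose and 1.14% fell in matΔ. Of the 31 other Hox genes, 27 could be tested. In wt, 7 rose with stage (Hoxd3, Hoxc8, Hoxd8, Hoxa9, Hoxc9, Hoxd9 and Hoxc10). In matΔ, 7 also rose, with Hoxd13 in place of Hoxc10, while 0 were called between genotypes over all stages. In females alone 10 rose in wt and 4 in matΔ. Hoxd8 had a wt slope of 0.30 (SE 0.036, adjusted p = 2.7e-05) and Hoxc9 0.39 (SE 0.049, adjusted p = 3.7e-05). The median wt slope was 0.018 in group 4, 0.0045 in group 5, 0.21 in group 6, 0.063 in group 7, 0.16 in group 8 and 0.23 in group 9, so the median of group 6 lay between those of groups 8 and 9.

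The noncoding transcripts of the clusters include the antisense partners already described. Of 15 listed, 9 were in the table and 7 tested. In wt 1 rose (Hoxb5os), and in matΔ 2 rose (Hoxb5os and Hoxaas3), against 2 in wt and 1 in matΔ in females alone and 1 in matΔ without the pair rich in ribosomal RNA counts. Hotairm1, transcribed at the early end of the HoxA cluster, had a wt slope of −0.088 (adjusted p = 0.136). None was called between genotypes over all stages.

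Among 16 upstream regulators, 2 rose and 3 fell with stage in each genotype. None was called between genotypes over all stages, where 4 had an unadjusted p under 0.05, against 5.67% of all genes. Cdx1, an activator of trunk Hox genes, fell by 0.34 per somite on the log2 scale in wt (SE 0.041, adjusted p = 2.7e-05), and Nr6a1, a nuclear receptor of the trunk-forming stage, fell by 0.22 (adjusted p = 2.3e-04). Fgf8 had a log2 fold change of 0.32 and Cdx1 of 0.31 in matΔ over all stages (adjusted p = 0.867 for each, edgeR). Of the 9 TALE genes, whose products bind DNA together with Hox proteins, Pbx2 (0.065 per somite, adjusted p = 0.0051) and Pknox1 (0.097, adjusted p = 0.0052) rose in wt and none in matΔ, where DESeq2 called 2 and the fits without sex or without libraries under 4000000 counts called 1 each, and no difference in slope was called. Of 17 Polycomb and trithorax genes 16 were tested, and Cbx7, a Polycomb subunit, fell by 0.22 per somite in wt (SE 0.065, adjusted p = 0.0431). That call was lost without the sex covariate (adjusted p = 0.153).

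The genes nearest in pattern to each member were found by the root mean square difference of the centred means of the 12 groups, in log2 CPM, among genes with a spread of at least 50% of that of the member. Hoxc6 was nearest to Cyp26a1 (0.097), Pgm1 (0.11) and Pltp (0.13), and Hoxa7 to Fgf17 (0.065), Lurap1 and Cdk19. Hoxb6 was nearest to Mettl22 (0.064), Impdh1 and Msx1, and Hoxb7 to Rpl27a (0.050), Sh3pxd2a and Pyurf. Hoxa6, with larger counting error, was nearest to Upk3bl (0.25), Gm16499 and Emilin3. Of group 5, Hoxa5 was nearest to Znrf1 (0.063), B4galt7 and Zdhhc18, Hoxb5 to Cux2 (0.11), Matn2 and Gm12977, and Hoxc5 to Alkbh1 (0.043), Hprt and Lyrm2. The differences are a measure of likeness over the 12 group means and carry no test.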

How the data were processed

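As the labels and methods state, tailbuds were cut 1.5 somites below the last somite, and libraries were made from 100 ng of total RNA, or less where a tailbud yielded less, with stranded or non-stranded TruSeq mRNA kits and sequenced as 75 bp single-end reads. The authors trimmed reads with Trim Galore 0.4.4, mapped them to GRCm38.p6 with HISAT2 2.0.5 and quantified genes in SeqMonk. The authors deposited raw counts per gene and log2 RPKM for 39 Hox genes (their mean and difference columns were not used). A deposited list of the authors' own comparisons (fold changes, p-values and FDR) was not used.

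Of 35591 rows, 49 with a repeated identifier were dropped. Counts were tested in R 4.3.3 with edgeR 4.0.16 (quasi-likelihood, TMM, filterByExpr with a minimum count of 10, two-sided, Benjamini-Hochberg over all genes tested, threshold 0.05). DESeq2 1.42.0 was an alternative. Genotype effects had somite number and, except at single ages, sex in the fit, and slopes had sex. Levels are the deposited log2 RPKM, and log2 CPM used a prior count of 2. The scripts were tested on simulated data. The named genes were the 8 members, the 3 nearest genes of each and, per gene list, at most the 2 with the smallest p in the wt slope and in the genotype effect. Members and lists were chosen with earlier results of these data known. Whether embryos shared litters is not stated in the sources used here, so p-values measure the spread between these samples. Taking the expected Hoxaas3 reads off Hoxa7 was chosen after seeing the data. Other Hox genes named for their slopes were named after the calls were seen. Some sequences and the slope of 1 gene are not reported here.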

Additional observations from a re-analysis of the deposited data

Results flagged for a closer look

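Of 32 groups of 4 embryos or more, 2 held an embryo far from the rest by Dixon's criterion for a gap in a small group, and chance alone marks about 1 in 20 groups. Hoxa5 stood at 2.22 log2 RPKM in the wt embryo at 10 somites numbered replicate 1, against 3.11 to 3.14 in the other 3. The same embryo had the lowest tailbud progenitor and presomitic mesoderm marker sums of all 37 (476 and 115 CPM), and the third highest endoderm and erythroid sums (1642 and 3802 CPM). Their part in its Hoxa5 level was not tested.

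Hoxc5 stood at 3.14 log2 RPKM in the matΔ embryo at 6 somites numbered replicate 3, against 2.32 to 2.42 in the other 3. That library had 916444 counts and 26 counts of Hoxc5.

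Hoxb7 had differences of opposite sign at 2 ages, neither of them called. In matΔ embryos it was lower by −0.0702 log2 RPKM (matΔ minus wt) at 8 somites and higher by 0.124 at 11 somites, with the groups apart at both ages. Each age held 3 wt and 2 matΔ embryos, and 15.8% and 26.4% of all genes were apart at these ages in log2 CPM. The fitted changes by edgeR were −0.11 (unadjusted p = 0.503) at 8 somites and 0.12 (unadjusted p = 0.352) at 11 somites. The difference between these ages was not tested.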

How the results depend on the processing

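The number of members called in the wt slope was 2 and became 4 in females alone, and it ran from 1 to 4 when each embryo was left out in turn. It was 4 without the wt embryo at 10 somites numbered replicate 1 (Hoxa7 and Hoxb6 added), and 1 (Hoxc6) without the wt replicate 2 at 6, 4 at 7, 2 at 10 or 1 or 2 at 11 somites. Every other count of members called stayed within 1.5 times the main one in the alternatives run. The sign of the Hoxb5 slope turned in wt (−0.0022 without libraries under 4000000 counts, −0.015 to 0.026 with each embryo left out) and in matΔ (0.031 without the pair rich in ribosomal RNA counts, −0.055 to 0.025 with each embryo left out). The cause was not tested.

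Counts over all genes moved more. In the genotype effect at 6 to 8 somites 1 gene was called by edgeR, 29 by DESeq2 and 39 with no filter on low counts. The wt slope called 1006 genes, 1802 in females alone and 1920 without the wt replicate 1 at 10 somites. The matΔ slope called 475, and 1130 by DESeq2, 175 in females alone and 301 without the pair rich in ribosomal RNA counts. With no filter the difference in slope called 39 genes in place of 0, and the effects at 8 and 11 somites 186 and 172 in place of 0, while DESeq2 called 10 at 11 somites.

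With the replicate block, 0 members were called in each genotype comparison, and the count of all genes went from 2 to 1 over all stages and from 1 to 0 at 6 to 8 and at 9 to 11 somites. The numbers do not pair the embryos: of 16 same-numbered pairs, 7 had deviations that correlated above 0.1 (range −0.25 to 0.75), and 4 of 16 matΔ embryos correlated best with their own number. Shallow libraries limit Hoxa6 and Hoxb5 most.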
